A study of Mus musculus with 4 samples.

Results

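The genes described here encode splicing factors: SR proteins and their kinases, hnRNP proteins, the proteins of the small nuclear ribonucleoproteins (snRNPs), PRP factors, RBM proteins and regulators of alternative exons. They were chosen by symbol alone, from the families Srsf, Tra2, Srrm, Clk, Srpk, Hnrnp, Sf3a, Sf3b, U2af, Snrp, Lsm, Prpf, Rbm, Ptbp, Mbnl, Celf and Rbfox2. The rule matched 139 protein-coding genes among the 52636 genes in the count table, and 126 of them reached 1 CPM, a count scaled to library size, in at least 1 library. Those 126 are described below, among 12351 genes of the series that passed the same filter. RNA-seq was done on Myc-CaP cells, a mouse prostate cancer line from Hi-Myc transgenic mice of the FVB strain, in which an androgen-responsive probasin promoter drives MYC in prostate epithelium, so all groups shared that transgene. The 4 groups were cells in which stable shRNAs target Ptk2, the gene of focal adhesion kinase (FAK), given norepinephrine, the same shFAK cells given vehicle, cells with a negative control hairpin (shNC) given norepinephrine, and shNC cells given vehicle. Norepinephrine, the adrenergic stress hormone, was used at 10 µM for 24 h. The labels give 1 library per group and do not say how many clones or hairpins stand behind each line. A difference between lines or treatments therefore had no replicate check, and every ratio below compares single libraries.

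Splicing is carried out by the spliceosome, which is built on each intron from snRNPs. The U1 snRNP recognises the 5′ splice site, the U2 snRNP binds the branch point, and the tri-snRNP of U4, U6 and U5 brings in the catalytic core. Sm proteins form a ring on U1, U2, U4 and U5 RNA, and LSm proteins form a like ring on U6 RNA. SR proteins mostly promote the use of exons to which they bind, hnRNP proteins often repress them, and many of these genes control their own mRNA through exons that trigger nonsense-mediated decay. A count per gene, as deposited here, sums all isoforms of a gene. An annotated transcript of the nonsense-mediated decay class existed for 63 of the 126 genes, including 13 of the 14 SR protein genes and all 6 kinase genes, and such transcripts cannot be told apart from coding ones in these counts.

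Total counts were 23410486 (shFAK, norepinephrine), 26016936 (shFAK, vehicle), 27598343 (shNC, norepinephrine) and 29948640 (shNC, vehicle), and the 126 genes took between 2.54% and 2.71% of them. Ptk2 had 52.0 CPM with norepinephrine and 48.8 CPM with vehicle in shFAK, against 118 and 119.7 CPM in shNC, lower in the cells labelled with the FAK hairpin. Of the prostate luminal epithelial markers, Hoxb13 had 37.0 to 49.5 CPM, but Krt18, Epcam and Cdh1 had at most 15 counts in any library and Krt8 had 48 to 165 counts. The summed level of 5 fibroblast markers was 13.4 and 13.2 CPM in shFAK (norepinephrine, vehicle), against 7.58 and 9.69 CPM in shNC. Most of it was 1 gene, Pdgfra, at 12.4 and 12.3 CPM in shFAK, against 7.43 and 9.32 CPM in shNC. Of the other fibroblast markers, Col3a1, Dcn and Lum were at 0 in every library. The 5 immune markers summed to 0.945 to 1.39 CPM and the 4 endothelial markers to at most 0.225 CPM. The part of other cells in the results was not tested, and in bulk RNA fewer cells of a type and less RNA per cell cannot be told apart. The libraries differed in gene length, with shNC norepinephrine furthest from 0 and shFAK vehicle nearly as far on the other side. Across the 12351 genes, the Spearman correlation of a library's deviation from the gene mean with gene length was 0.27 (shFAK, norepinephrine), 0.46 (shFAK, vehicle), -0.52 (shNC, norepinephrine) and 0.03 (shNC, vehicle). The hairpin comparison under vehicle and the norepinephrine comparison in shFAK do not use the shNC norepinephrine library. Both use the shFAK vehicle library, at 0.46. Their log2 ratios also went with gene length, with Spearman correlations of 0.32 and -0.29 across the 12351 genes. Results are given below for each pair of libraries separately. Values given as detrended are log2 ratios after a smooth trend with gene length and GC content, fitted over all genes, was taken off.

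Levels per kilobase of gene model spanned a wide range in the set, from 0.416 CPM per kb for Rbm47 to 510.3 CPM per kb for Hnrnpa1, with a median of 25.1 CPM per kb over the 126 genes. The hnRNP genes were the most abundant family, with a median of 87.6 CPM per kb, followed by the Sm and snRNP genes at 77.6 CPM per kb and the SR protein genes at 53.2 CPM per kb. The kinases of SR proteins were the scarcest, at a median of 6.88 CPM per kb. Hnrnpa1, Hnrnpa0 and Hnrnpab led the list, then Lsm4 at 343.9 CPM per kb and Snrpb at 322.3 CPM per kb. Within the alternative splicing regulators, Ptbp1 at 114 CPM per kb stood far above its neural relative Ptbp2 at 3.40 CPM per kb. Hnrnpa1 has 9 near-identical copies in the annotation and Ptbp1 has 2, so both levels are uncertain.

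**Figure D1:**
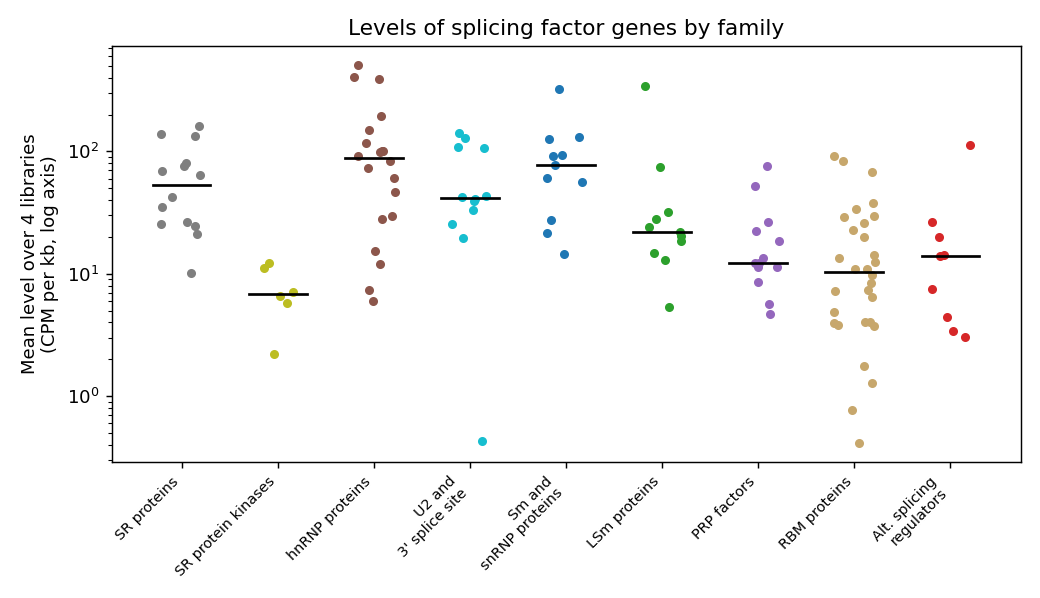
Mean level of each of the 126 genes over the 4 libraries, in CPM per kilobase of gene model on a log axis, by family. Points are genes, offset sideways for visibility, and black bars are family medians, highest for hnRNP genes at 87.6 and lowest for the kinases at 6.88 CPM per kb.

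The first comparison asked how cells with the FAK hairpin differed from control hairpin cells. Most splicing factor genes sat slightly lower in shFAK, and a minority, Mbnl3 foremost, sat higher. Under vehicle the median log2 ratio of shFAK over shNC was -0.09 over the 126 genes and 0.00 over all genes tested; under norepinephrine it was -0.07 and 0.02. The log2 ratio was below 0 in both pairs of libraries, which share no library, for 75 of the 126 genes (59.5%; 37.8% of all genes tested), and above 0 in both for 35 (27.8%; 40.8% of all genes tested). The detrended ratio was below 0 in both pairs for 87 of the 126 genes (69%; 36.9% of all genes tested) and above 0 in both for 26 (20.6%; 40% of all genes tested). When libraries were scaled by their totals alone, the median of all genes moved to 0.11 under norepinephrine. Relative to that shift the set was again lower, but its own median was then 0.02. The number below 0 in both pairs was then 56 of 126, against 3707 of the 12351 genes tested.

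The differences were small. The size rule used here asks for at least a 1.5-fold ratio with a 99% counting interval that leaves out 1. Under vehicle 0 of the 126 genes met it in either direction, where 3.69% of all genes tested met it as higher and 1.6% as lower in shFAK. Under norepinephrine 3 genes met it as higher (Mbnl3, Rbm47 and Rbm20; 8.11% of all genes tested) and 4 as lower (Lsm7, Snrpd2, Snrpe and Lsm4; 3.15% of all genes tested), and 0 met it in both pairs (2.44% of all genes as higher, 0.834% as lower). That split depends on the scaling: under norepinephrine, 6 genes were higher and 1 lower with library totals alone, where Lsm4, Snrpd2 and Snrpe stood at -0.51 to -0.52, and 2 were higher and 5 lower with DESeq2 size factors. After detrending, Mbnl3 and Rbm47 met the rule as higher and 0 genes as lower. At a lower threshold, a log2 ratio of at least 0.32 in size, 5 genes were higher under vehicle (9.94% of all genes) and 6 lower (5.54%), and under norepinephrine 18 were higher (17.7%) and 27 lower (13.3%). At that lower threshold Mbnl1, Mbnl3, Rbm4, Rbm20 and Rbm43 were higher in both pairs (5 genes; 7.61% of all genes) and Lsm3, Lsm7, Snrpd1 and Snrpe lower in both (4 genes; 3.82% of all genes). Detrended, 3 genes were higher in both (5.62% of all genes) and 2 lower in both (2.62%). An additive model of hairpin and treatment over all 4 libraries, fitted with edgeR's quasi-likelihood test, called 39 of the 126 genes lower in shFAK (31%; 16.2% of all genes tested) and 20 higher (15.9%; 19.5% of all genes tested) at a Benjamini-Hochberg adjusted p under 0.05. That model has 1 residual degree of freedom and takes departure from additivity as its only error. DESeq2 fitted to the same model called 24 lower and 6 higher, with no share of all genes tested to set beside them.

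**Figure D2:**
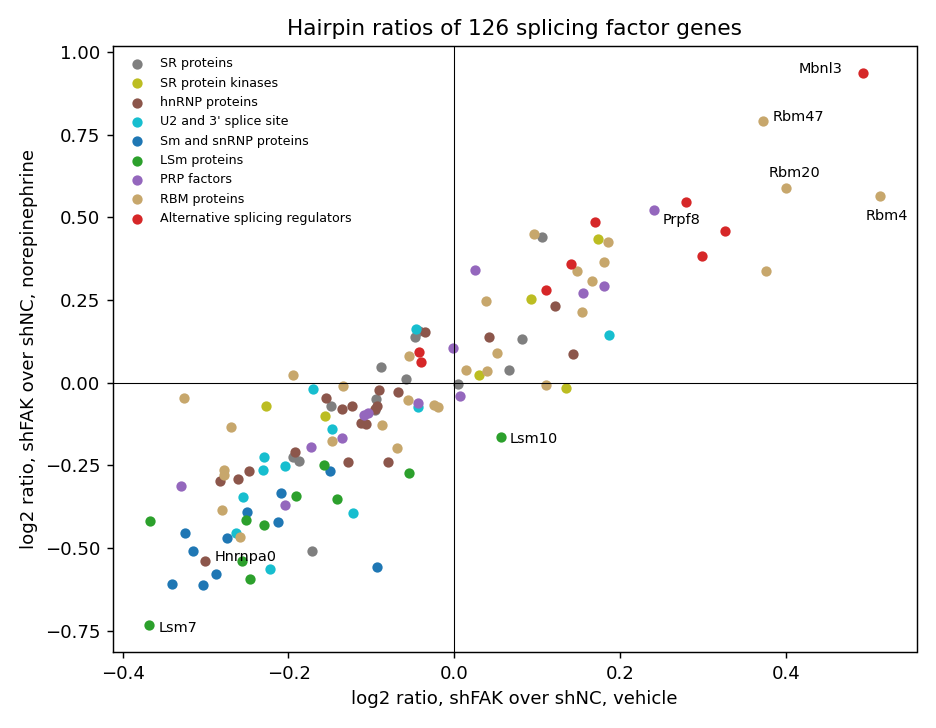
Log2 ratio of shFAK over shNC for each of the 126 genes, under vehicle on the horizontal axis and under norepinephrine on the vertical axis, coloured by family. The Sm, snRNP and LSm genes fill the lower left and 7 of the 9 alternative splicing regulators the upper right; Mbnl3 lies at 0.49 and 0.93, and Lsm7 at -0.37 and -0.73.

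The hairpin ratios of the 126 genes under norepinephrine followed those under vehicle with a Pearson r of 0.90 and a Spearman rho of 0.89 across genes, against 0.60 and 0.70 across all genes tested. Genes are not independent replicates, and each pair's ratios carry the library-wide trends of its own libraries. The 126 genes were also more abundant, with a median of 25.1 CPM per kb against 7.14 CPM per kb over all genes tested. The part of counting noise in the contrast with all genes was not tested. The spread was wider under norepinephrine, with an SD of 0.32 across the 126 genes, than under vehicle, with an SD of 0.19. After detrending the Spearman rho was 0.87.

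The core proteins of the snRNPs were the family lowest in shFAK. All 11 Sm and snRNP genes had log2 ratios below 0 in both pairs (37.8% of all genes tested), with medians of -0.27 under vehicle and -0.47 under norepinephrine. Of the 11 LSm genes, 10 did, with medians of -0.23 and -0.41. The exception was Lsm10, a component of the U7 snRNP that processes histone pre-mRNA, at 0.06 (-0.22 to 0.33) under vehicle and -0.17 (-0.44 to 0.11) under norepinephrine (detrended, 0.23 and 0.13); the range in parentheses here and below is the 99% counting interval. The medians of both families stayed below 0 under each of the 4 scalings tried. The additive edgeR model called 18 of the 22 genes lower and 0 higher in shFAK (16.2% and 19.5% of all genes tested). The rule at 0.32 was met as lower by 4 of 22 under vehicle (5.54% of all genes) and 18 of 22 under norepinephrine (13.3%). Of the 22, 12 have a near-identical copy in the annotation and 5 overlap another gene's exons; the 7 with neither had medians of -0.19 and -0.35.

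Snrpe encodes SmE, a member of the Sm ring. It had 106 CPM with norepinephrine and 108 CPM with vehicle in shFAK, against 162 and 137 CPM in shNC. Both shFAK libraries were below both shNC libraries, and the log2 ratio was -0.34 (-0.43 to -0.25) under vehicle and -0.61 (-0.70 to -0.52) under norepinephrine. Snrpd2, which encodes the ring protein SmD2, had 175 CPM with norepinephrine and 166 CPM with vehicle in shFAK, against 267 and 205 CPM in shNC. Its ratios were -0.30 (-0.38 to -0.23) and -0.61 (-0.68 to -0.54), again with no overlap between lines. Snrpe has 1 near-identical copy and Snrpd2 has 2, so part of their counts may come from or be lost to copies. Snrpb, which encodes SmB and SmB' and was the most abundant of the family, has no such copy. It had 578 CPM with norepinephrine and 554 CPM with vehicle in shFAK, against 757 and 659 CPM in shNC, and its ratios were -0.25 (-0.29 to -0.21) and -0.39 (-0.43 to -0.35). The other Sm ring genes, Snrpd1, Snrpd3, Snrpf and Snrpg, had ratios between -0.32 and -0.09 under vehicle and between -0.58 and -0.42 under norepinephrine.

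The proteins particular to U1 and U2 followed the ring. Snrpa1, whose protein is specific to the U2 snRNP, had 57.1 CPM with norepinephrine and 59.9 CPM with vehicle in shFAK, against 81.2 and 74.5 CPM in shNC, with log2 ratios of -0.31 (-0.44 to -0.19) and -0.51 (-0.64 to -0.38); its exons overlap another gene model. Snrpb2, its partner on U2 RNA, had the highest mean ratio of the family, with -0.15 (-0.26 to -0.04) and -0.27 (-0.39 to -0.15). Of the U1 proteins, Snrpa stood at -0.27 and -0.47 and Snrpc at -0.21 and -0.33.

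Among the LSm genes, Lsm2 to Lsm8 encode the ring on U6 RNA, and Lsm1 replaces Lsm8 in the cytoplasmic ring that acts in mRNA decay. Lsm4 had 318 CPM with norepinephrine and 288 CPM with vehicle in shFAK, against 479.6 and 342 CPM in shNC, with log2 ratios of -0.25 (-0.30 to -0.19) and -0.59 (-0.65 to -0.54). It has no near-identical copy and overlaps no other gene. Lsm7 had 96.7 CPM with norepinephrine and 95.6 CPM with vehicle in shFAK, against 161 and 123 CPM in shNC, with ratios of -0.37 (-0.46 to -0.27) and -0.73 (-0.83 to -0.64), the lowest of the 126 genes in both pairs; it has 2 near-identical copies. In both genes the shFAK libraries were the lowest and the shNC norepinephrine library was the highest. All 7 ring genes Lsm2 to Lsm8 had negative ratios in both pairs, from -0.37 to -0.16 under vehicle and from -0.73 to -0.25 under norepinephrine, and Lsm1 stood at -0.14 and -0.35. After detrending, the median over the 22 Sm, snRNP and LSm genes was -0.20 under vehicle and -0.34 under norepinephrine. Of the 22, 19 were then below 0 in both pairs (36.9% of all genes tested). The detrended ratios of Lsm4, which has a short gene model of 1038 bases, were -0.06 and -0.31.

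**Figure D3:**
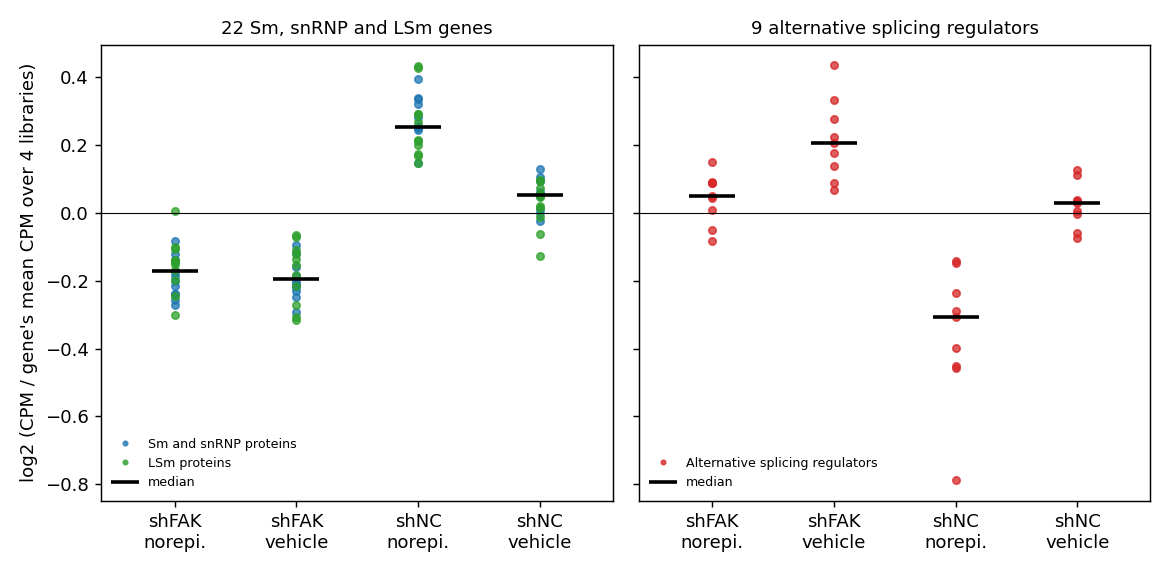
Level of each gene in each library as log2 of its CPM over its mean CPM of the 4 libraries, for the 22 Sm, snRNP and LSm genes (left) and the 9 alternative splicing regulators (right); black bars are medians. The shNC norepinephrine library is highest for the first set and lowest for the second, while in the vehicle libraries shFAK is below shNC on the left and above it on the right.

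The promoters of Snrpe and Lsm7 are shown because these genes had the lowest mean hairpin ratios of the Sm and LSm families. Both are RefSeq windows of build GRCm38.p6, from 250 bases before to 50 bases after the gene's start, written 5′ to 3′ along the gene. Capitals mark matches, on either strand, to the motifs searched. Snrpe lies on the minus strand at chr1:133610231-133610530 and holds an ETS core, CCGGAAG, whose matches on the 2 strands overlap. Lsm7 lies on the minus strand at chr10:80855160-80855459 and holds GC boxes, GGGCGG, which overlap each other, and a YY1 match, AAGATGGCG, near the end of the window.
Snrpe: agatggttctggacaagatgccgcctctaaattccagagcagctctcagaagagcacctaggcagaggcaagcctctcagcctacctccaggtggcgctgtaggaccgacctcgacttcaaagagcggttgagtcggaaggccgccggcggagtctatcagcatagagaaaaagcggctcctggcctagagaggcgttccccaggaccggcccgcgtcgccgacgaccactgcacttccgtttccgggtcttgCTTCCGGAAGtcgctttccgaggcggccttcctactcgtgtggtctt
Lsm7: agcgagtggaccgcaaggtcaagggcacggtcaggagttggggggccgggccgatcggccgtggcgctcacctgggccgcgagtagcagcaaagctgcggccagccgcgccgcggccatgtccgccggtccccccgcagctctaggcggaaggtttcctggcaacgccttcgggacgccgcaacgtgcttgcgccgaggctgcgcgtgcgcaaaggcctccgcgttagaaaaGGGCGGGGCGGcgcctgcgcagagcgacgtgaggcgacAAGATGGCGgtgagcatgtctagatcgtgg
Of the 22 Sm, snRNP and LSm genes, 16 had a RefSeq window within 1000 bases of the deposited gene start, and 5 of these (31.2%) held CCGGAAG, against 20.7% of 8109 windows of all genes tested and 24.7% of the 93 windows of the splicing factor set. GGGCGG was in 12 of 16 (75%), against 68.2% of all windows, and AAGATGGCG in 1 of 16 (6.25%), against 3.7%. A match is a match of letters only.

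The genes of 3′ splice site recognition were also mostly lower in shFAK, at smaller size. Of 12 genes, 10 had negative ratios in both pairs (37.8% of all genes tested), with medians of -0.19 under vehicle and -0.24 under norepinephrine. U2af2 encodes the large U2AF subunit that binds the polypyrimidine tract. It had 537 CPM with norepinephrine and 539.8 CPM with vehicle in shFAK, against 627 and 633 CPM in shNC, and its log2 ratio was about the same in both pairs, -0.23 (-0.27 to -0.19) and -0.23 (-0.27 to -0.18); it has 2 near-identical copies. Its partner U2af1, which reads the AG at the intron's end, stood at -0.26 (-0.36 to -0.16) and -0.46 (-0.56 to -0.35), also with 2 copies. Sf3b5, a small subunit of the SF3b complex that holds the branch point, had 143 CPM with norepinephrine and 128 CPM with vehicle in shFAK, against 211 and 149 CPM in shNC, with ratios of -0.22 (-0.31 to -0.14) and -0.56 (-0.65 to -0.48). The detrended ratios of Sf3b5 were -0.23 and -0.55, and the gene has neither copy nor overlap. Sf3b1, the large SF3b subunit known for mutations in cancer, differed from these: its ratios were -0.05 (-0.11 to 0.02) and 0.16 (0.09 to 0.24), though -0.17 and -0.12 after detrending. The 3 SF3a genes lay between -0.23 and -0.15 under vehicle and between -0.26 and -0.14 under norepinephrine. U2af1l4 was scarce at 1.28 CPM in the lowest library and its ratios of 0.19 and 0.14 had counting intervals that include 0.

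PRP factors were divided before detrending, with 7 of 13 genes negative in both pairs and 4 positive in both (37.8% and 40.8% of all genes tested). They were mostly below 0 after it, with 10 negative in both and 2 positive in both (36.9% and 40%). Their medians were -0.04 and -0.06, or 0.00 and 0.03 when libraries were scaled by their totals alone, and -0.11 and -0.12 after detrending. Prpf8 encodes the scaffold of the spliceosome's catalytic centre. It had 600.2 CPM with norepinephrine and 682 CPM with vehicle in shFAK, against 418 and 577 CPM in shNC, with log2 ratios of 0.24 (0.20 to 0.28) and 0.52 (0.48 to 0.57); detrended, they were 0.18 and 0.37. Prpf31, which joins U4/U6 to U5 and is known for mutations in retinitis pigmentosa, had 92.2 CPM with norepinephrine and 88.5 CPM with vehicle in shFAK, against 114 and 111 CPM in shNC. Its ratios of -0.33 (-0.43 to -0.23) and -0.31 (-0.42 to -0.21) were opposite to those of Prpf8, and the detrended values were -0.36 and -0.39. Prpf31 has 1 near-identical copy and an overlapping transcript. The tri-snRNP genes Prpf3, Prpf4 and Prpf6 stood at -0.17, -0.04 and -0.10 under vehicle and at -0.20, -0.06 and -0.09 under norepinephrine, and Prpf19, the ubiquitin ligase of the complex that bears its name, at -0.14 and -0.17.

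SR protein genes had a median near 0. The median of 14 genes was -0.07 under vehicle and 0.00 under norepinephrine (0.09 with library totals alone). After detrending it was -0.08 in both pairs, with 9 of 14 genes negative in both and 2 positive in both (36.9% and 40% of all genes tested). Before detrending the ratios ran from -0.19 to 0.11 under vehicle and from -0.51 to 0.44 under norepinephrine. At 0.32, 0 of 14 met the rule under vehicle, and under norepinephrine 1 met it as higher, Srrm2 (17.7% of all genes tested), and 1 as lower, Srsf9 (13.3%). Srsf2, the most abundant per kilobase, had 468 CPM with norepinephrine and 457 CPM with vehicle in shFAK, against 496 and 488 CPM in shNC, with ratios of -0.10 (-0.14 to -0.05) and -0.08 (-0.13 to -0.04). It shares exons with Mfsd11 and Mettl23 and has 2 copies. Srsf9 had the lowest mean ratio of the family. It had 201 CPM with norepinephrine and 199.8 CPM with vehicle in shFAK, against 285 and 225 CPM in shNC, with -0.17 (-0.24 to -0.10) and -0.51 (-0.58 to -0.44). Srrm2, a large scaffold protein of nuclear speckles, had the highest. It had 477 CPM with norepinephrine and 527 CPM with vehicle in shFAK, against 352 and 489.8 CPM in shNC, with 0.11 (0.06 to 0.15) and 0.44 (0.39 to 0.49), and detrended values of 0.01 and 0.19. The additive edgeR model called 3 of the 14 lower, Srsf3, Srsf7 and Srsf9 (16.2% of all genes tested), and 1 higher, Srrm2 (19.5%), while Srsf1, Srsf5 and Srsf6 had ratios between -0.09 and 0.07.

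The kinases that phosphorylate SR proteins had medians of 0.06 and 0.00 over 6 genes. With library totals alone these were 0.10 and 0.09, and after detrending -0.04 and -0.17. Srpk1 and Srpk2 act mainly in the cytoplasm, on the import of SR proteins, and the Clk kinases in the nucleus. Srpk1 had 111 CPM with norepinephrine and 111 CPM with vehicle in shFAK, against 117 and 129.9 CPM in shNC, with ratios of -0.23 (-0.32 to -0.14) and -0.07 (-0.17 to 0.03). Srpk2 had 34.8 CPM with norepinephrine and 33.0 CPM with vehicle in shFAK, against 25.8 and 29.2 CPM in shNC, with ratios of 0.17 (-0.01 to 0.35) and 0.43 (0.24 to 0.63), so the pair lay on opposite sides of 0 under vehicle; Srpk2 overlaps Kmt2e exons. The 4 Clk genes ranged from -0.16 to 0.13 under vehicle and from -0.10 to 0.25 under norepinephrine.

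The hnRNP genes, the most abundant family, were mostly a little lower in shFAK. Of 20 genes, 16 had negative ratios in both pairs (37.8% of all genes tested), with medians of -0.11 and -0.08. When libraries were scaled by their totals alone, the second median turned to 0.01. That scaling left 9 negative in both, against 3707 of the 12351 genes tested. After detrending the family medians were -0.16 and -0.19, and 17 of the 20 genes were negative in both (36.9% of all genes tested). Hnrnpa1, a repressor of exon inclusion, had 906 CPM with norepinephrine and 972 CPM with vehicle in shFAK, against 985 and 1051 CPM in shNC, with ratios of -0.11 (-0.14 to -0.08) and -0.12 (-0.16 to -0.09), or -0.03 and 0.05 after detrending. Hnrnpa0, an A/B type hnRNP that binds AU-rich mRNA, had 983 CPM with norepinephrine and 864 CPM with vehicle in shFAK, against 1429 and 1064 CPM in shNC. Its ratios of -0.30 (-0.33 to -0.27) and -0.54 (-0.57 to -0.51) gave the lowest mean of the family, and it has neither copy nor overlap. The additive edgeR model called 5 hnRNP genes lower and 0 higher (16.2% and 19.5% of all genes tested): Hnrnpa0 and also Hnrnpc, Hnrnpd, Hnrnpl and Hnrnpm, the other 4 with ratios between -0.28 and -0.19 under vehicle and between -0.30 and -0.21 under norepinephrine. Hnrnpd, known as the mRNA decay factor AUF1, was lower still after detrending, at -0.37 and -0.47. Hnrnpll, a regulator of Ptprc splicing in lymphocytes, had the highest mean ratio of the family, with 0.12 (0.05 to 0.19) and 0.23 (0.15 to 0.31), but its detrended ratios were -0.02 and -0.06. Hnrnpa3 has 26 near-identical copies and Hnrnpf has 10, and their values are uncertain.

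The 30 RBM genes, grouped by an RNA-binding motif in the name and not by a shared role, spread on both sides, with medians of 0.00 and 0.03, or 0.04 and 0.12 when libraries were scaled by their totals alone. After detrending the medians were -0.02 and -0.08. Rbm20, the splicing regulator of titin in heart, had 29.3 CPM with norepinephrine and 29.7 CPM with vehicle in shFAK, against 19.5 and 22.5 CPM in shNC. Both shFAK libraries were above both shNC libraries, and the ratios were 0.40 (0.20 to 0.60) and 0.59 (0.37 to 0.81). Rbm47, a partner of the APOBEC1 editing enzyme, was scarce at 4.66 CPM with norepinephrine and 2.60 CPM with vehicle in shFAK, against 2.66 and 1.99 CPM in shNC, or 112 and 69 counts in shFAK, against 71 and 59 in shNC. Its ratio under norepinephrine was 0.79 (0.23 to 1.40) and under vehicle 0.37 (-0.30 to 1.07), and it overlaps an antisense transcript that unstranded reads do not separate. Rbm4, an alternative splicing regulator, stood at 0.51 (0.00 to 1.05) and 0.56 (0.01 to 1.15) from 2.96 to 4.56 CPM, with 2 copies and an overlapping gene model. On the lower side, Rbm17 (SPF45, a 3′ splice site factor), the most abundant RBM gene per kilobase, had 194 CPM with norepinephrine and 198 CPM with vehicle in shFAK, against 253 and 239.9 CPM in shNC, with -0.28 (-0.35 to -0.21) and -0.38 (-0.46 to -0.31). Rbm8a, the Y14 subunit of the exon junction complex, had 193 CPM with norepinephrine and 189 CPM with vehicle in shFAK, against 266 and 226 CPM in shNC, with -0.26 (-0.33 to -0.19) and -0.47 (-0.54 to -0.40), and 1 copy. The cold-inducible Rbm3 stood at -0.28 in both pairs, with 5 copies.

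The regulators of alternative exons were the family highest in shFAK. Of 9 genes, 7 had positive ratios in both pairs and 0 negative in both (40.8% and 37.8% of all genes tested). Their medians were 0.17 under vehicle and 0.38 under norepinephrine, and kept their sign under each of the 4 scalings tried. The additive edgeR model called 6 of 9 higher and 0 lower in shFAK (19.5% and 16.2% of all genes tested); the 6 were Celf1, Celf2, Mbnl1, Mbnl2, Mbnl3 and Ptbp3. After detrending the medians were 0.06 and 0.13. Muscleblind proteins bind YGCY sequences and are the proteins sequestered by repeat RNA in myotonic dystrophy, in which Celf1 is raised. Mbnl3 had 43.0 CPM with norepinephrine and 52.4 CPM with vehicle in shFAK, against 22.5 and 37.2 CPM in shNC. The order of the libraries was shFAK vehicle, shFAK norepinephrine, shNC vehicle and shNC norepinephrine from high to low, so the lines did not overlap. Its ratios were 0.49 (0.34 to 0.65) and 0.93 (0.75 to 1.13), and 0.38 and 0.71 after detrending. Mbnl2 had 69.5 CPM with norepinephrine and 79.1 CPM with vehicle in shFAK, against 47.6 and 65.2 CPM in shNC, with 0.28 (0.16 to 0.40) and 0.55 (0.41 to 0.69), and 0.26 and 0.52 after detrending; it overlaps an antisense transcript. Mbnl1 had 140.3 CPM with norepinephrine and 175 CPM with vehicle in shFAK, against 102 and 139.8 CPM in shNC, with 0.33 (0.25 to 0.41) and 0.46 (0.36 to 0.56). Its shFAK norepinephrine and shNC vehicle libraries were alike, and its detrended ratios, for a long gene model of 18717 bases, were 0.12 and 0.04. Celf1, a regulator of splicing and mRNA decay, stood at 0.14 (0.08 to 0.20) and 0.36 (0.29 to 0.43), and Celf2 at 0.17 (0.06 to 0.28) and 0.48 (0.36 to 0.61); the detrended values of Celf2, with 25884 bases, were -0.06 and 0.00. Ptbp3 stood at 0.30 (0.20 to 0.39) and 0.38 (0.28 to 0.49), with 1 copy. Ptbp1, the abundant repressor of exons next to pyrimidine tracts, stood at -0.04 (-0.08 to 0.00) and 0.09 (0.05 to 0.14), and Ptbp2 at -0.04 (-0.21 to 0.13) and 0.06 (-0.13 to 0.26). Rbfox2, which binds GCAUG, had 151 CPM with norepinephrine and 161 CPM with vehicle in shFAK, against 125 and 149 CPM in shNC, with 0.11 (0.03 to 0.19) and 0.28 (0.19 to 0.37).

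The promoter windows of the muscleblind genes Mbnl1 and Mbnl2 are shown, since their RefSeq start is the deposited gene start. The RefSeq start of Mbnl3, the muscleblind gene with the highest ratios, is 542 bases from the deposited one, and its window holds 0 of the 7 motifs and is not shown. Mbnl1 lies on the plus strand at chr3:60472580-60472879, and holds CCAAT boxes, E-boxes (CACGTG) and a TATA box (TATAAA), whose matches on the 2 strands overlap. Mbnl2 lies on the plus strand at chr14:120275419-120275718 and holds CCAAT boxes and a GC box. Build, window, strand of writing and capitals are as above.
Mbnl1: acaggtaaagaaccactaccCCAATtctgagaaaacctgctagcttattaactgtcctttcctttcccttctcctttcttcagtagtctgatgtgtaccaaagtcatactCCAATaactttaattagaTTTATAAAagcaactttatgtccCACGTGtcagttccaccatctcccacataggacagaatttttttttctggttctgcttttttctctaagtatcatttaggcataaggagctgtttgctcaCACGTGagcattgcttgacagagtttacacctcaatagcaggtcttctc
Mbnl2: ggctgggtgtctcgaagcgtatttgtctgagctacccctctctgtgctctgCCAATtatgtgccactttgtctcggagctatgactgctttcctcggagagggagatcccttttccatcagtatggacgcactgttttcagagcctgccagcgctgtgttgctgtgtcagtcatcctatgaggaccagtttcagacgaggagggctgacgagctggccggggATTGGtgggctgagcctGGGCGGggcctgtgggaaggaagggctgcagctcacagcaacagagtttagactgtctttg
Of the 9 regulators, 5 had such a window; CCAAT was in 3 of 5 (60%), against 39.9% of all windows, and CACGTG in 2 of 5 (40%), against 10.9%, while CCGGAAG was in 0 of 5. Over the 93 windows of the whole set, CCAAT was in 50.5%, CACGTG in 12.9%, TATAAA in 9.68% (5.96% of all windows), AAGATGGCG in 5.38% and GGGCGG in 66.7%.

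Gene length went with the hairpin ratio within the set. Across the 126 genes the Spearman correlation of the log2 ratio with gene model length was 0.48 under vehicle and 0.68 under norepinephrine, against 0.32 and 0.47 across all genes tested. The 42 shortest genes, of 792 to 3714 bases, had medians of -0.18 and -0.32, and 35 of them were negative in both pairs (37.8% of all genes tested). The 42 longest, of 6584 to 25884 bases, had medians of 0.03 and 0.16, and 24 were positive in both (40.8% of all genes tested). Shares among all genes of like length were not computed, so these counts do not set the splicing genes apart from other genes of their length. The Sm ring genes had a median length of 1570 bases and the muscleblind genes of 8743 bases. The part of length in the family differences was not tested beyond the detrended values. These kept 19 of the 22 Sm, snRNP and LSm genes below 0 in both pairs (36.9% of all genes tested) and Mbnl2 and Mbnl3 above 0, and brought Celf2 and Mbnl1 close to 0. Across the 126 genes the detrended ratios had Spearman correlations with length of 0.05 under vehicle and 0.19 under norepinephrine, against 0.02 and 0.03 across all genes tested.

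**Figure D4:**
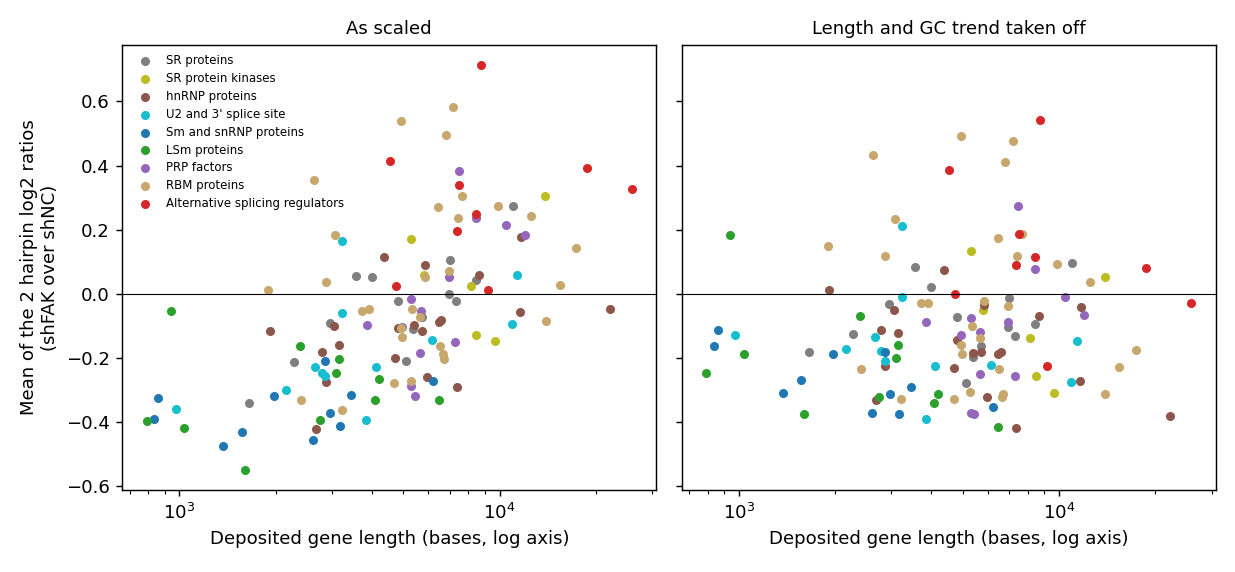
Mean of the 2 hairpin log2 ratios (shFAK over shNC) of each of the 126 genes against gene model length in bases on a log axis, as scaled (left) and after the trend with length and GC content over all genes was taken off (right). The slope with length on the left is mostly gone on the right, where Mbnl3 is still the highest point, and most Sm and LSm genes are still below 0.

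A list of 72 other spliceosome genes, chosen outside the symbol families but with earlier results of these data known, was also mostly lower in shFAK. It holds helicases, members of the PRP19 complex, U1 and U5 proteins, exon junction and speckle proteins, and 69 passed the filter. Their medians were -0.12 under vehicle and -0.13 under norepinephrine, or -0.11 and -0.14 after detrending. In both pairs, 47 were negative and 12 positive (37.8% and 40.8% of all genes tested). Detrended, 52 were negative and 7 positive in both (36.9% and 40%). The additive edgeR model called 23 lower and 2 higher in shFAK (16.2% and 19.5% of all genes tested). The lowest were Ppih, a cyclophilin of the U4/U6 snRNP, at -0.32 and -0.84, Dnajc8 at -0.49 and -0.58, and the PRP19-related genes Bcas2 at -0.51 and -0.47 and Isy1 at -0.40 and -0.41. The highest were Son, a speckle scaffold like Srrm2, at 0.29 and 0.74, the cold-inducible Cirbp at 0.43 and 0.37, the U5 helicase gene Snrnp200 at 0.12 and 0.25, and Cwc25 at 0.14 and 0.16. Detrended ratios were 0.15 and 0.41 for Son, 0.49 and 0.49 for Cirbp, 0.05 and 0.08 for Snrnp200, and 0.11 and 0.10 for Cwc25. The additive model called Son and Cirbp higher but neither Snrnp200 nor Cwc25.

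The other comparison asked what norepinephrine did in each line. In shFAK cells the splicing factor genes hardly differed between norepinephrine and vehicle: the median log2 ratio was -0.04 and the SD across the 126 genes 0.12. In shNC cells the median was -0.03 and the SD 0.23. This pair uses the shNC norepinephrine library, at -0.52 in the correlation with gene length, which also serves the hairpin pair under norepinephrine. The shFAK pair uses the shFAK vehicle library, at 0.46. The 1.5-fold rule was met in shFAK by 1 gene as higher, Rbm47 (1.27% of all genes tested), and 0 as lower (0.429%), in shNC by 0 as higher (1.56%) and 2 as lower, Mbnl3 and Rbm41 (2.16%), and in both lines by 0 (0.154% of all genes as higher, 0.0891% as lower). At the threshold of 0.32, 1 gene was higher (2.52% of all genes) and 0 lower (1.46%) in shFAK, against 7 higher (7.64%) and 15 lower (10.1%) in shNC. The additive edgeR model called 12 of the 126 genes lower with norepinephrine (9.52%, against 7.29% of all genes tested). It called 4 higher (3.17%, against 5.04% of all genes tested). DESeq2 called 1 lower and 0 higher, again with no share of all genes tested. The ratio was below 0 in both lines for 61 of the 126 genes (48.4%; 35.7% of all genes tested) and above 0 in both for 32 (25.4%; 35.6%), but the detrended ratio was below 0 in both for 36 (28.6%; 33.6%) and above 0 in both for 49 (38.9%; 30.1%). Across the 126 genes the ratios of the lines, which share no library, had a Pearson r of 0.68 and a Spearman rho of 0.70. Across all genes tested, which were less abundant, these were 0.27 and 0.49.

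**Figure D5:**
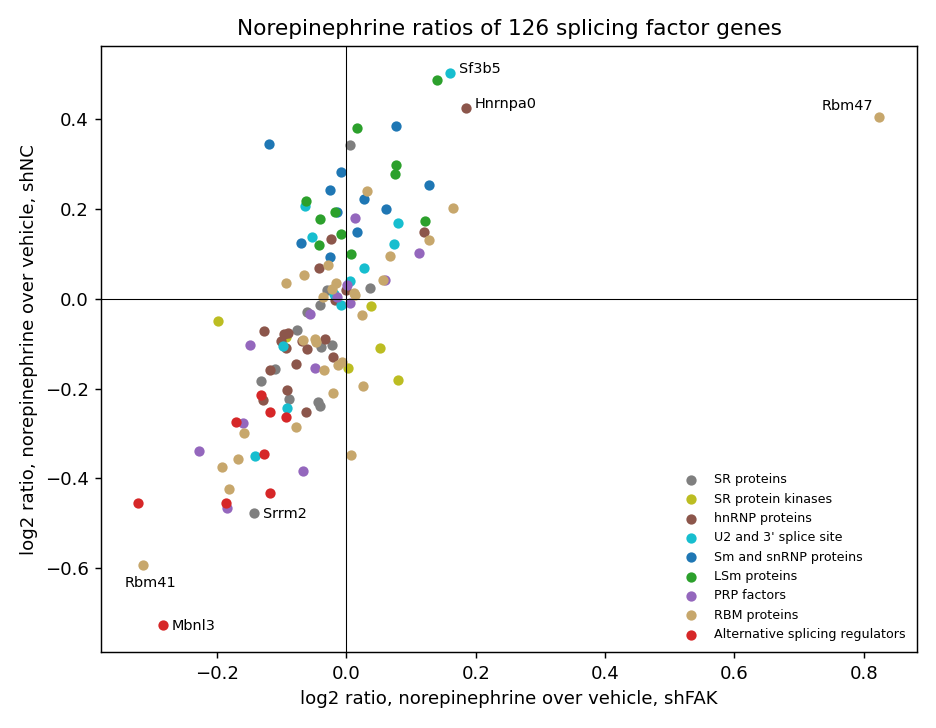
Log2 ratio of norepinephrine over vehicle for each of the 126 genes, in shFAK on the horizontal axis and in shNC on the vertical axis, coloured by family. Points spread further along the shNC axis; all 9 alternative splicing regulators lie below 0 in both lines, and Rbm47 lies apart at 0.82 and 0.41.

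All 9 alternative splicing regulators were lower with norepinephrine in both lines (35.7% of all genes tested), with medians of -0.13 in shFAK and -0.35 in shNC. Mbnl3 had ratios of -0.28 (-0.44 to -0.13) in shFAK and -0.73 (-0.92 to -0.54) in shNC, Mbnl1 of -0.32 (-0.41 to -0.24) and -0.45 (-0.55 to -0.36), and Mbnl2 of -0.19 (-0.31 to -0.06) and -0.45 (-0.59 to -0.32). Ptbp3, the least shifted of the 9 by mean ratio, stood at -0.13 (-0.23 to -0.04) and -0.22 (-0.32 to -0.11). After detrending 6 of the 9 were below 0 in both lines and 1 above 0 in both (33.6% and 30.1% of all genes tested). The detrended ratios of Mbnl3 were -0.16 in shFAK and -0.46 in shNC. Among long genes of other families, Prpf8 stood at -0.18 (-0.23 to -0.14) and -0.47 (-0.51 to -0.42), Srrm2 at -0.14 (-0.19 to -0.10) and -0.48 (-0.53 to -0.43), and Sf3b1 at -0.14 (-0.21 to -0.07) and -0.35 (-0.42 to -0.28). Rbm41, a protein of the minor spliceosome, had 7.08 CPM with norepinephrine and 8.82 CPM with vehicle in shFAK, against 7.31 and 11.1 CPM in shNC, and stood at -0.31 (-0.70 to 0.06) and -0.59 (-0.94 to -0.26). Rbm47 was the one member higher at 1.5-fold in shFAK, at 0.82 (0.26 to 1.44), and stood at 0.41 (-0.26 to 1.10) in shNC.

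The Sm, snRNP and LSm genes were apart from the regulators in the norepinephrine ratio. In shFAK their 22 ratios ran from -0.12 to 0.14, with a median of 0.00. In shNC all 22 were above 0, from 0.09 to 0.49, with a median of 0.21, where 6171 of the 12351 genes tested were above 0. After detrending the medians were 0.01 in shFAK and 0.18 in shNC. Of the 22, 12 were then above 0 in both lines (30.1% of all genes tested) and 0 below 0 in both (33.6%). Lsm4 stood at 0.14 (0.08 to 0.20) in shFAK and 0.49 (0.44 to 0.54) in shNC, Snrpd2 at 0.08 (0.00 to 0.16) and 0.38 (0.32 to 0.45), and Sf3b5 of the U2 family at 0.16 (0.07 to 0.25) and 0.50 (0.43 to 0.58). Hnrnpa0 stood at 0.19 (0.15 to 0.22) and 0.43 (0.40 to 0.45), while most other hnRNP genes were slightly below 0, with family medians of -0.07 in shFAK and -0.09 in shNC. In families with small responses, the lowest and highest mean ratios were those of Clk4 at -0.20 (-0.37 to -0.03) and -0.05 (-0.21 to 0.11) and Clk3 at 0.04 (-0.10 to 0.18) and -0.01 (-0.14 to 0.11) of the kinases. Hnrnph1 had the lowest of the hnRNP genes, -0.13 (-0.17 to -0.09) and -0.23 (-0.27 to -0.18), and Prpf40b the highest of the PRP genes, 0.11 (-0.11 to 0.34) and 0.10 (-0.10 to 0.31). Lsm6 and Snrpa1 had the lowest of their families, -0.04 and -0.07 in shFAK and 0.12 in shNC for each.

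The response in shFAK minus that in shNC was taken as the difference of the log2 ratios, and 0 genes met the 1.5-fold rule for it in either direction (1.07% of all genes tested as higher, 0.672% as lower). At the threshold of 0.32, Snrpf, Lsm7, Lsm4, Sf3b5 and Srsf9 had a lower response in shFAK (5 genes; 2.59% of all genes), and Mbnl3, Rbm4b and Srrm2 a higher one (3 genes; 4.19%). Snrpf had the lowest difference, -0.46 (-0.63 to -0.30), with 2 copies and overlapping genes, and Mbnl3 the highest, 0.44 (0.20 to 0.68). The difference was negative for all 22 Sm, snRNP and LSm genes, from -0.46 to -0.05, with no share of all genes tested to set beside that count. Its median over the 22 was -0.20, and -0.15 after detrending, against 0.01 and -0.004 over all genes tested. For the 3 muscleblind genes it ran from 0.13 to 0.44. Detrended, it was -0.08 for Mbnl1, 0.26 for Mbnl2 and 0.33 for Mbnl3. The detrended difference still went with gene length across the 126 genes, with a Spearman correlation of 0.30, against 0.04 across all genes tested. Every one of these differences rests on the shNC norepinephrine library, and also on the shFAK vehicle library.

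Of the 139 genes matched by symbol, 13 did not reach 1 CPM. The closest were Celf4, with at most 0.513 CPM, and Celf3, with at most 0.50 CPM, and the nearest gene above the threshold was U2af1l4, with at most 1.54 CPM. Celf5, Celf6, Rbm24, Rbm42 and a further identifier of U2af1l4 had a few counts. Rbm11, Rbm31y, Rbm44, Rbm46, Snrpn and Srsf12 had 0 counts in all 4 libraries, where a count of 0 allows up to 0.128 CPM at the lowest total. Snrpn and Rbm42 share exons with other annotated genes, and reads assigned to more than one gene may not have been counted, so their low values are uncertain. Among the 126 genes, 60 have a near-identical copy, 50 overlap another gene's exons and 51 have neither. The 51 had median hairpin ratios of -0.05 under vehicle and -0.01 under norepinephrine.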

How the data were processed

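Raw gene-level counts of the 4 libraries were deposited by the authors in 1 table with coordinates, lengths and biotypes. The submitters' processing notes name the mm10 build, featureCounts 1.5.0-p3 and HISAT2 2.0.5. How multi-mapping reads were handled, the strand option and the annotation version are not given in the sources used here. Libraries came from the NEBNext Ultra kit, per the labels' protocols, and carry no strand information, so overlapping and antisense genes cannot be told apart. Columns were matched to samples by title.

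From the deposited counts, TMM factors were computed with edgeR 4.0.16 in R 4.3.3 over genes that reached 1 CPM in some library. Log2 ratios used a prior count of 2. Intervals are exact 99% Clopper-Pearson intervals of the counts; for the difference of responses the normal approximation on the log scale was used. They cover counting error only, since they use only the counts of the libraries compared, with 1 library per group. Reads amplified by PCR and lacking molecular identifiers are not separate molecules, so the intervals may be too narrow even for that. The size rule asked for 1.5-fold and an interval that leaves out 1; 0.32 on the log2 scale and 2-fold were alternatives, with other scalings, filters and prior counts. The trend of each pair's log2 ratios with gene length and GC content was fitted with natural splines of 4 degrees of freedom. An additive model (edgeR quasi-likelihood test; DESeq2 1.42.0 Wald test, both with Benjamini-Hochberg adjustment over all genes tested) was an alternative. Near-identical copies, with at least 95% identity over at least 100 bases, were sought with minimap2 2.31 on GENCODE M21 transcripts; coordinates of 113 of the 126 genes were identical in that release. The computations were tested on simulated data, in which the changed genes were well counted and differed by at least 2-fold. Smaller changes of single genes were not simulated. For the size rule the simulated noise was counting noise only, without variation between replicate libraries.

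The members, the families, the list of other spliceosome genes and the markers were chosen with earlier results of these data known. Named are the members that met the size rule (up to 12 per direction for both pairs, up to 6 for a single pair), in each family the highest level per kilobase and the lowest and highest mean ratios, and up to 4 genes per direction of the other list. Other genes in the text were picked after their values were seen, for their role. Some of the prostate luminal epithelial markers are not reported here.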

Additional observations from a re-analysis of the deposited data

How the results depend on the processing

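No paired analysis was possible because each group had 1 library and the labels give no replicate numbers, and for the same reason no replicate could be left out. With TMM factors, 7 of the 126 genes met the 1.5-fold rule for the hairpin under norepinephrine (3 higher, 4 lower), 1 for norepinephrine in shFAK, 2 for norepinephrine in shNC, and 0 for the hairpin under vehicle, both hairpin pairs, both norepinephrine pairs and the difference of responses. With library totals alone the 7 were 6 higher and 1 lower, with DESeq2 size factors 2 higher and 5 lower, and with upper-quartile factors 6 met it (2 higher, 4 lower). Without a filter on low counts, 11 met it for the hairpin under norepinephrine (2 higher, 9 lower). After detrending for length and GC content, 2 did (Mbnl3 and Rbm47, both higher), and 0 for norepinephrine in shNC. With copied or overlapping members left out, 3 did for the hairpin under norepinephrine and 0 for norepinephrine in shFAK. DESeq2 size factors, upper-quartile factors and a prior count of 10 each left 1 for norepinephrine in shNC, and a CPM of at least 5 left 0 in shFAK. At 2-fold, 0 met the rule in the hairpin pair under norepinephrine and in either norepinephrine pair. At a threshold of 0.32 on the log2 scale, 11 met it for the hairpin under vehicle, 45 under norepinephrine, 9 in both pairs, 22 for norepinephrine in shNC and 8 for the difference of responses. The additive model called 59 (edgeR) and 30 (DESeq2) for the hairpin, and 16 and 1 for norepinephrine. The cause of these changes was not tested, except that fewer genes enter with a stricter filter or without copies. Of the values of members meeting the rule, 0 changed sign under the alternatives run, and 28 fell below the threshold, 10 of them at 2-fold. Depth limits Rbm47, Rbm41, Rbm4 and U2af1l4, which have low counts. Where no share of all genes tested is given above, the counts in this paragraph compare settings only.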
